A study of Bos taurus with 7 samples.

Results

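The 8 bovine microRNAs described here, bta-miR-1224, bta-miR-3141, bta-miR-2348, bta-miR-1343-5p, bta-miR-2374, bta-miR-2902, bta-miR-2413 and bta-miR-2486-5p (the prefix is left out below), gave plasma signals of middle strength, below the 8 brightest miRNAs of the array. They were picked from earlier results of these arrays, either for a signal in the middle of the range or for a lean to non-pregnant cows after scaling, and they are 8 of the 744 bovine miRNAs measured. Signal strength and the difference between the groups therefore chose them, and both are given below as descriptions with no test. The 7 plasma samples came from Japanese-Black cattle (Bos taurus) that were artificially inseminated after controlled estrus and bled on day 21, counting insemination as the start. 4 cows were labelled pregnant (numbers 1 to 4) and 3 non-pregnant (numbers 1, 3 and 4). Each sample, called a cow below, was on its own 1-colour Agilent miRNA array. The titles do not say whether a number found in both groups marks the same animal. The labels name no other treatment and no age.

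A miRNA is a short RNA that guides an Argonaute protein to messenger RNAs, mostly through the bases near its own 5′ end, and lowers their translation or stability. In plasma, miRNAs travel in vesicles, with lipoproteins or bound to proteins, and blood cells are a major source. In cattle, the embryo signals its presence to the mother through interferon tau around the third week, which is the window sampled here. miR-1224 is a mirtron, a miRNA cut from a short intron by splicing. On the RefSeq annotation of ARS-UCD2.0, all 8 were found by name. The gene of miR-1224 overlaps VWA5B2, that of miR-1343 lies over PDHX, which encodes a component of the pyruvate dehydrogenase complex, and that of miR-2348 over TMC6, of the transmembrane channel-like family. The gene of miR-2374 overlaps HMCES, a protein that shields abasic sites in DNA, and that of miR-2486 overlaps GPKOW, a splicing-associated protein. No overlapping gene was listed for miR-2902, miR-2413 or miR-3141, the last of which has no assigned chromosome there.

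Each of the 8 was read by a pair of probes that share their first bases and differ by 1 base at the 3′ end, with 10 spots per probe. The probes are shown because their length, C content and last base are described below. Each line gives the longer probe 5′ to 3′, with the base that the shorter probe lacks in capitals.
miR-1224: ctccacctccC
miR-3141: cctcctccacccG
miR-2348: ggccgctccacA
miR-1343-5p: cccgcccgggG
miR-2374: cccgcctctccC
miR-2902: cccacctccaggG
miR-2413: accgcagtccccC
miR-2486-5p: cccaccctacaccG

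Per the array files, on the UMD 3.1 (bosTau6) assembly the longer probe of miR-1224 maps to chromosome 1, 83546873 to 83546882. That of miR-3141 maps to chromosome 12, 73398861 to 73398872, and that of miR-2348 to chromosome 19, 54657756 to 54657766. The longer probe of miR-2374 maps to chromosome 22, 59818266 to 59818276. On chromosome 3 lie those of miR-2413, 33702871 to 33702882, and of miR-2902, 117980184 to 117980195. miR-1343-5p has 2 listed places on chromosome 15, 65174969 to 65174979 and 66264870 to 66264880. miR-2486-5p has 2 on the X chromosome, 55318840 to 55318853 and 92281848 to 92281861. The listed spans are shorter than the longer probe (10 against 11 bases for miR-1224), except for miR-1343-5p and miR-2486-5p, where the lengths match. Strand and gene parts on this assembly are not given in the sources used here.

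The 16 probes were short and rich in C. They were 10 to 14 bases long (median 12) with a GC content of 69.2% to 100% and a median C content of 62.9%. Over all 1617 probes of the array the median length was 16 bases, the median GC content 50% and the median C content 26.7%. Probes of at most 14 bases made up 25.9% of the array. The 24 other miRNAs detected on all 7 arrays, the 8 brightest left out, had a median probe length of 15 bases and a median GC content of 62.0%. Short C-rich probes were not particular to the members. Those of the 8 brightest had a median of 11 bases, 86.7% GC and 80.9% C, against a median GC of 76.0% for the members.

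Most miRNAs with short GC-rich probes were detected on no array. Of the 107 miRNAs with a probe of at most 14 bases and at least 69.2% GC, 24 (22.4%) were detected on all 7 arrays and 58 (54.2%) on none, next to 5.38% and 83.3% of all 744. These limits are those of the members' own probes, and the 24 include the members and the 8 brightest, all picked by signal. With the picked miRNAs left out, 8 such miRNAs were detected on all 7 arrays, 25 on 1 to 6 and 58 on none. The percentages above therefore do not measure how such probes fare in general. Of the 50 such probes of miRNAs detected on all 7 arrays, 32 belong to the 8 members and the 8 brightest miRNAs, which were picked by signal. The 18 others had a median C content of 59.9%, next to 53.8% for miRNAs detected on 1 to 6 arrays (44 probes) and 33.3% for those detected on none (113 probes). Outside the miRNAs picked by signal, 15 probes with at least 50% C belonged to miRNAs detected on all arrays, 26 to those detected on 1 to 6 and 15 to those detected on none. Probes are not independent of each other, since most miRNAs have several, and no test was made.

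**Figure D1:**
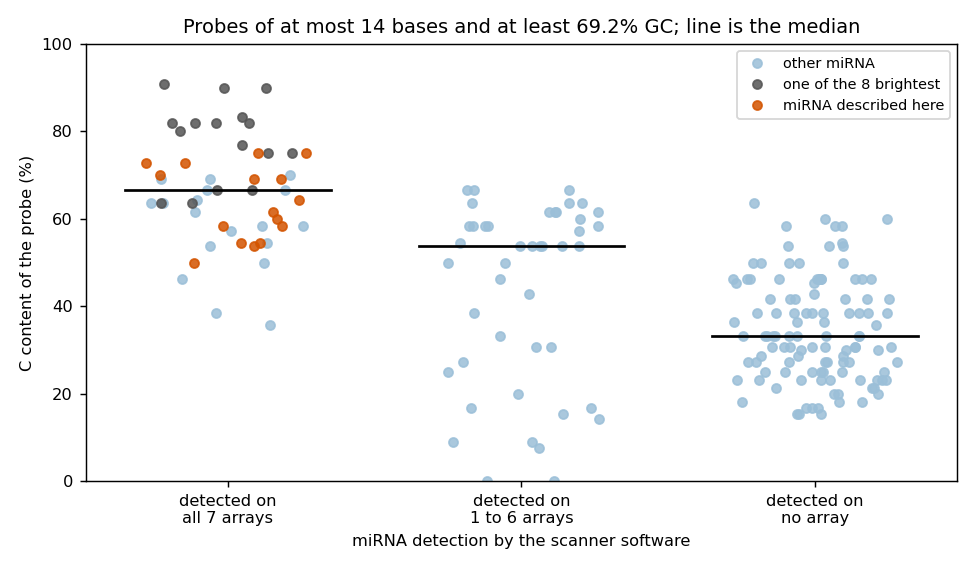
C content (percent, vertical axis) of probes of at most 14 bases and at least 69.2% GC, split by how many arrays detected their miRNA; each point is a probe and lines are medians. The median is 66.7% for miRNAs detected on all 7 arrays, where 32 of 50 probes belong to miRNAs picked by signal (59.9% for the 18 others), and 33.3% for those detected on none.

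The opposite arms of the hairpins of miR-1343 and miR-2486, also on the array, gave no signal. The 3p arm of each was detected on 0 of 7 arrays, and 0 of 130 spots of miR-1343-3p and 0 of 129 spots of miR-2486-3p were well above background. The probes of miR-1343-3p were longer than those of the 5p arm (12 and 13 bases against 10 and 11) and less GC-rich (75% and 76.9% against 100%). They also held less C, 16.7% to 23.1% against 54.5% to 60%. The longer probe of miR-1343-3p is printed for comparison with its 5p partner above.
miR-1343-3p: gagagtgcgggcC

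Probes that differ by a single end base differed in signal. The shorter probe of miR-2413 was not detected on any array (0 of 66 spots well above background, with probe means from -4.29 to 1.86), while the longer one, with one more C at the end of the same run, was detected on all 7 (65 of 65 spots, means of 15.1 to 64.3). Of the 653 pairs on the array that differ by 1 added base, 22 had both probes detected on all arrays. In 11 more, a single probe was detected on all arrays, and in 2 of these the other was detected on none. The remaining pairs had no probe detected on all arrays and could not show this pattern. The longer probe of miR-2374, which adds a C, gave 3.37 times the signal of the shorter one (median of 7 arrays, range 3.13 to 4.27). That of miR-1224, also with an added C, gave 1.65 times (1.58 to 1.83).

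Where the added base was G, the longer probe was dimmer. The ratio of longer to shorter was 0.637 for miR-3141 (0.594 to 0.730), 0.647 for miR-2902 (0.613 to 0.733), 0.753 for miR-1343-5p (0.605 to 0.898) and 0.815 for miR-2486-5p (0.745 to 0.850), below 1 on every array for each. miR-2348, with an added A, was near 1 (0.954, range 0.684 to 0.992). Over the 15 other pairs with both probes detected on all arrays, 10 of the 11 with an added C had a brighter longer probe, and none had an added G. Among 11 pairs with one probe detected on more arrays than the other and at least one on all 7, 3 added a G, and in each of those the longer probe was detected on more arrays, so an added G did not go with a dimmer longer probe in every pair.

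**Figure D2:**
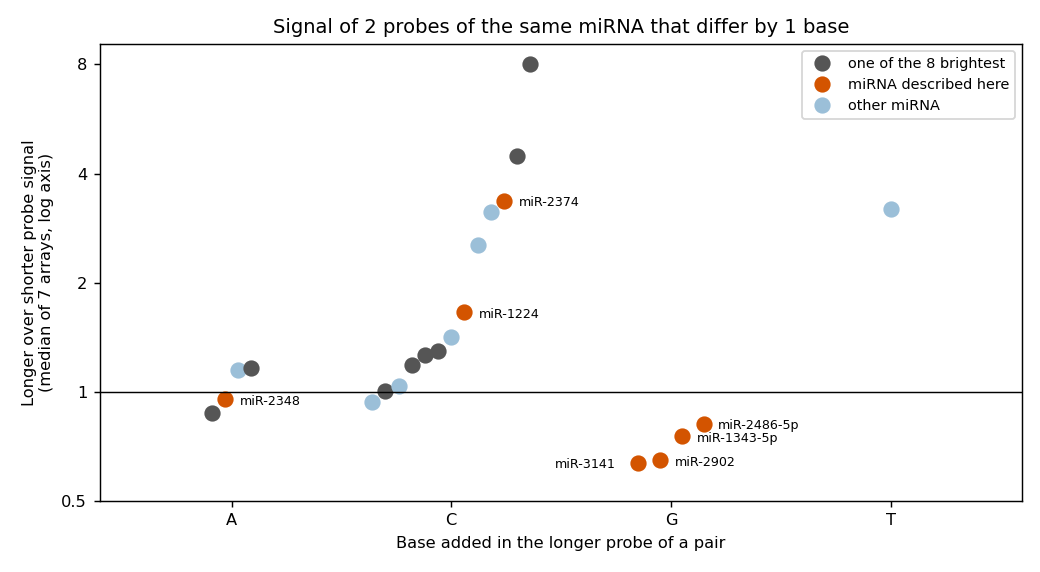
Signal of the longer probe over that of the shorter probe of the same miRNA (median of 7 arrays, log axis), by the base that the longer probe adds, for the 22 pairs with both probes detected on all arrays. The 4 miRNAs described here with an added G lie between 0.637 and 0.815, and miR-1224 and miR-2374 with an added C at 1.65 and 3.37; miR-2413 is not shown because its shorter probe was never detected.

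Several members shared a stretch of probe sequence with each other or with other miRNAs. miR-1224 and miR-2902 shared 8 bases (CCACCTCC), and miR-1224 and miR-3141 shared 7 (CTCCACC). Of miRNAs outside the 8, miR-30b-3p shared 9 bases with miR-1224 (TCCACCTCC) and was detected on no array. miR-2374 shared 8 bases (CCTCTCCC) with miR-2412, one of the 8 brightest, and miR-2413 shared 8 (CCGCAGTC) with miR-2316, also detected on all arrays. miR-188, detected on 6 arrays, shared 8 (CCTCCACC) with miR-3141. Whether one RNA bound both probes of such a pair was not tested. No probe of miR-2348, miR-1343-5p or miR-2486-5p shared 8 bases or more with a probe outside the 8.

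All 8 miRNAs were called detected by the scanner software on 7 of 7 arrays, as were 40 of the 744, while 620 were detected on none. The signal per miRNA is the scanner software's deposited total for its detected probes, background-subtracted and not scaled between arrays. It is not a plain sum of spots or of probe means. In pregnant cow 1, miR-2413 had a signal of 27.5, while its only detected probe had a mean of 41.4. Probe signals depend on how well a probe binds, so a rank by signal is not a rank by abundance. By median signal over the 7 arrays the members took ranks 9, 10, 11, 13, 20, 21, 23 and 37. From rank 9 to rank 37 there were 29 miRNAs, 21 of them not members. Just outside lay miR-2412 at rank 8 (median signal 1929, range 442 to 6226) and miR-2388-3p at rank 38 (24.2, range 15.1 to 39.2), next to miR-1224 at 472 and miR-2413 at 24.5.

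The arrays differed widely in brightness. The summed miRNA signal ran from 12010 in non-pregnant cow 1 to 101000.5 in pregnant cow 3, an 8.41-fold span, and no miRNA spot was saturated. Of the 7 arrays, pregnant cow 3, non-pregnant cow 3 and non-pregnant cow 4 were the brightest, in that order. All came from 1 slide, with pregnant cows in one row of it and non-pregnant cows in the other, so slide row and group cannot be told apart. Red-cell markers (2 of 3 detected on all arrays, miR-144 on none) summed to 46.9 to 75.7 in pregnant and 23.6 to 64.2 in non-pregnant cows. Leukocyte markers (3 of 6 detected on at least 1 array, miR-142-3p, miR-155 and miR-146a on none) summed to 143 to 423 and 55.9 to 170 in that order. Platelet markers (2 of the 4 on the array detected, miR-126-5p and miR-21-5p on none) reached at most 7.37 and 3.72, liver markers (2 of 2 detected) at most 51.2 and 21.9, and none of the 3 muscle markers was detected. In plasma, a change in release from cells and a change in clearance cannot be told apart from these values.

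miR-1224 varied most between cows. Its signal was 342, 472, 1104 and 317 in pregnant cows 1 to 4 and 45.4, 867 and 888 in non-pregnant cows 1, 3 and 4. Non-pregnant cow 1 was the lowest by far and pregnant cow 3 the highest, with the groups overlapping. From the dimmest to the brightest array the signal of miR-1224 differed 24.3-fold. Among the 32 other miRNAs detected on all arrays this span had a median of 5.42 and a highest value of 14.5. As a share of the summed signal, miR-1224 held 0.378% in non-pregnant cow 1 and 0.873% to 1.52% in the other 6 cows.

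Among the 8, miR-3141 and miR-2486-5p differed least between the brightest and the dimmest array (3.34-fold and 3.37-fold); the lowest such span among the 32 other miRNAs detected on all arrays was 1.47. Its signal was 306, 212, 446 and 218 in pregnant cows 1 to 4 and 134, 309 and 332 in non-pregnant cows 1, 3 and 4. Pregnant cow 3 was the highest and non-pregnant cow 1 the lowest. Its share was 0.439% to 0.569% on the 3 brightest arrays and 0.616% to 1.11% on the 4 dimmer ones. The ratio of miR-1224 to miR-3141 within an array ran from 0.339 in non-pregnant cow 1 to 2.81 in non-pregnant cow 3. Dividing a whole array by a single factor cannot change it, though quantile normalization can. In pregnant cows this ratio lay between 1.12 and 2.48, inside the span of the non-pregnant cows.

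miR-2348 also held a smaller share on the brightest arrays. Its signal was 326, 261, 669 and 170 in pregnant cows 1 to 4 and 88.2, 448 and 299 in non-pregnant cows 1, 3 and 4. The share was 0.513% to 0.663% on the 3 brightest arrays and 0.721% to 0.833% on the others. By group it was 0.744% ± 0.071 (SD, n = 4) in pregnant animals, compared with 0.628% ± 0.111 (SD, n = 3) in the others, with overlap.

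miR-2374 had a signal of 236, 163, 319 and 114 in pregnant cows 1 to 4 and 68.1, 286 and 306 in non-pregnant cows 1, 3 and 4. Its highest and lowest arrays were again the brightest and the dimmest, 4.68-fold apart. The share was 0.469% ± 0.117 (SD, n = 4) in pregnant animals, compared with 0.499% ± 0.083 (SD, n = 3) in the others.

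miR-2902 kept a nearly constant share. Its signal was 62.8, 54.7, 145 and 34.1 in pregnant cows 1 to 4 and 19.1, 104 and 96.8 in non-pregnant cows 1, 3 and 4. The share stayed between 0.144% and 0.166% in all 7 cows, a 1.15-fold span while its signal differed 7.61-fold. The share of miR-1343-5p, of a miRNA gene inside PDHX, ranged from 0.143% to 0.200%, with a signal of 78.1, 68.9, 185 and 35.6 in pregnant and 22.8, 137 and 83.5 in non-pregnant cows in the same order. For both, group means of the share differed by less than the spread within the groups.

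In unscaled signal, but not in share, miR-2486-5p and miR-2413 were flatter across the arrays than miR-2902 and miR-1343-5p. Their signals spanned 3.37-fold and 4.26-fold, against 7.61-fold and 8.12-fold. Their shares spanned 2.50-fold and 2.39-fold, against 1.15-fold and 1.40-fold. The signal of miR-2486-5p was 80.7, 62.6, 126 and 47.7 in pregnant cows 1 to 4 and 37.5, 102 and 119 in non-pregnant cows 1, 3 and 4. Its largest share, 0.312%, was in non-pregnant cow 1 and the others lay between 0.125% and 0.206%. The signal of miR-2413 was 27.5, 19.9, 37.7 and 15.1 in pregnant and 10.02, 24.5 and 42.7 in non-pregnant cows, the highest being non-pregnant cow 4. Its share ran from 0.0349% to 0.0834%.

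**Figure D3:**
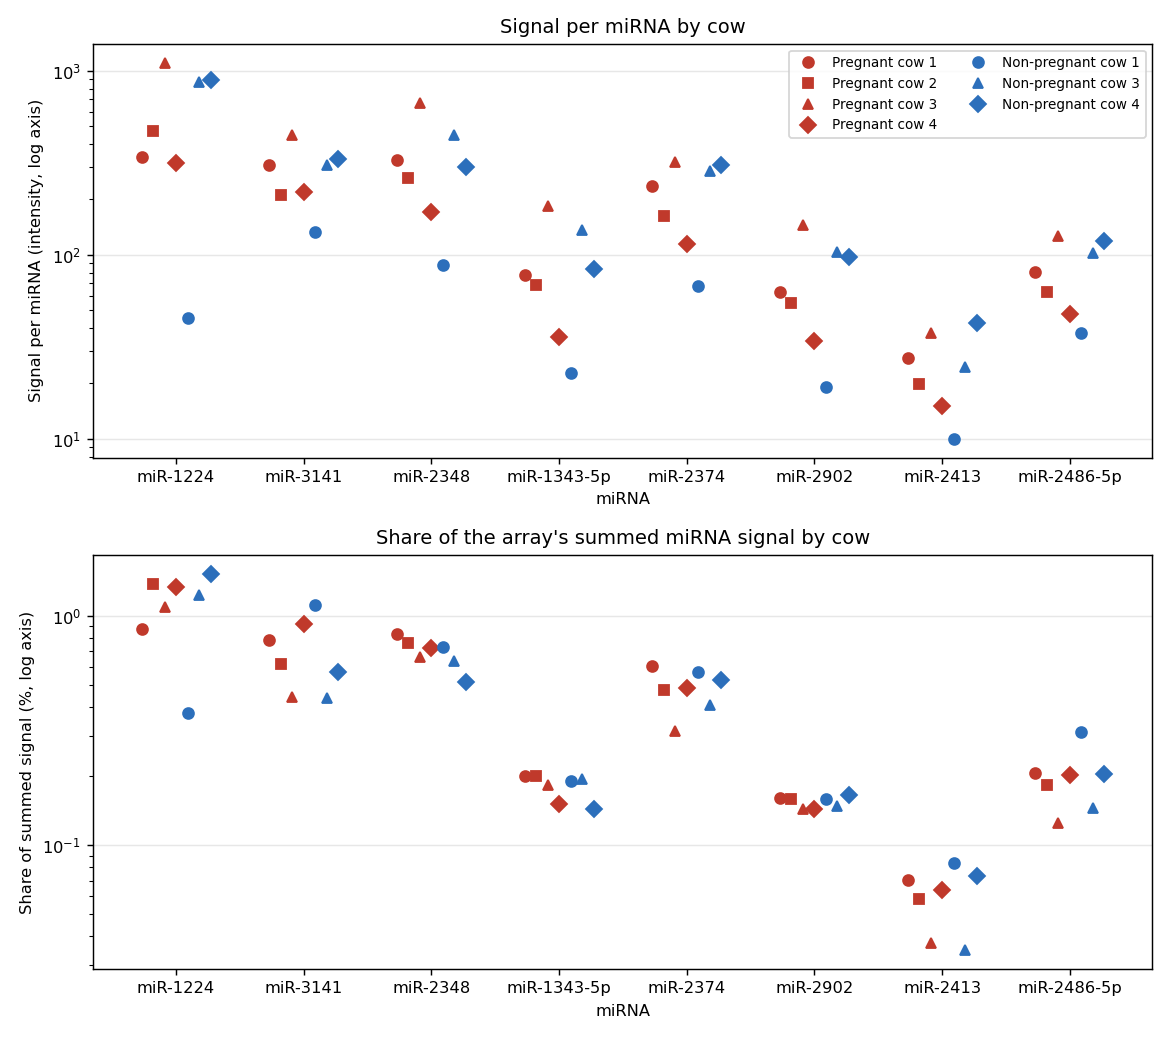
Signal per miRNA (upper panel, intensity, log axis) and share of the array's summed miRNA signal (lower panel, percent, log axis) of each miRNA in each cow; red marks pregnant and blue non-pregnant cows, and marker shapes give cow numbers. Non-pregnant cow 1 is the lowest for each signal, miR-1224 falls to a share of 0.378% there, and the share of miR-2902 stays between 0.144% and 0.166%.

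Spots of a probe agreed less well on 2 arrays. The median coefficient of variation over spots, for the 15 detected probes of these miRNAs, was 6.25% to 7.63% on 5 arrays, 17.0% in pregnant cow 4 and 24.5% in non-pregnant cow 4. The widest was 53.4%, for the longer probe of miR-1343-5p in pregnant cow 4. Differences that rest on those arrays are less exact.

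The order of the miRNAs by signal was stable only in parts. miR-2374 was above miR-2486-5p and miR-2902 above miR-2413 on 7 of 7 arrays. miR-1224 exceeded miR-3141, and miR-1343-5p exceeded miR-2902, on 6 of 7. miR-3141 exceeded miR-2348 on 3 of 7 and miR-2486-5p exceeded miR-1343-5p on 4 of 7, so these neighbours had no settled order.

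For the comparison of pregnant with non-pregnant cows, each probe's mean was divided by its array's 75th percentile over the 57 probes detected on all arrays, and a miRNA's level is the mean log2 over its probes. Of these 57 probes, 15 were the members' own, so the divisor is not independent of them. With this scaling 6 of the 8 miRNAs were on the non-pregnant side and 2, miR-1224 and miR-2348, on the pregnant side. The median difference (pregnant minus non-pregnant) was -0.087 in log2, against 0.18 over all 88 tested miRNAs and 0.0046 over the 32 other miRNAs detected on all 7 arrays. Values below a floor, -6.36 in scaled log2, were set to it. The median over all 88 was 0.29 with the floor halved and 0.016 with it doubled, while that of the 8 did not change. Non-pregnant cow 1 had 45 miRNAs detected, against 81 to 101 on the other arrays. Each of the 8 differences was about as large as its standard error or smaller. 0 of the 8 had groups without overlap, and over all 88 the groups did not overlap for 0% on the lower and 1.14% on the higher side in pregnant cows. limma called 0 of the 8 and 0 of the 88 (0% of the tested miRNAs) at a Benjamini-Hochberg adjusted p of 0.05, and 1 of the 88, not a member, had an unadjusted p below that value. Since a lean to non-pregnant cows helped to choose the 8, nothing is read from these counts.

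miR-2486-5p had the widest lean. Its scaled log2 level was -3.33, -3.24, -4.12 and -3.53 in pregnant cows 1 to 4 and -2.61, -3.79 and -3.20 in non-pregnant cows 1, 3 and 4. Non-pregnant cow 1 was the highest and pregnant cow 3 the lowest. The mean was -3.55 ± 0.40 (SD, n = 4) in pregnant animals, compared with -3.20 ± 0.59 (SD, n = 3) in the others, and the groups differed by -0.35 (standard error 0.34). Without non-pregnant cow 1 it was -0.058, and with scaling over all probes it turned to 0.32. Its pair of probes gave -0.39 (13 bases) and -0.31 (14 bases).

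miR-2374 and miR-2902 leaned less. miR-2374 had scaled levels of -2.12, -2.09, -3.03 and -2.49 in pregnant and -2.10, -2.52 and -2.14 in non-pregnant cows, so that the difference of -0.18 (standard error 0.26) rested on pregnant cow 3, and without it was 0.015. For miR-2902 the levels were -3.71, -3.46, -3.95 and -4.06 in pregnant and -3.60, -3.77 and -3.52 in non-pregnant cows. The highest value was in a pregnant cow, and the difference was -0.16 (standard error 0.17). Its sign held with each cow left out, from -0.28 to -0.077, and turned to 0.14 without scaling.

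The scaled difference of miR-2413 is understated. Its shorter probe was at the floor, a scaled log2 value of -6.36 set in place of lower values, on all 7 arrays. That probe adds 0 to the group difference, while it lowers the level over both probes and narrows its spread. The level over both probes was -5.28 ± 0.23 (SD, n = 4) in pregnant animals, compared with -5.18 ± 0.36 (SD, n = 3) in the others, and the groups differed by -0.097 (standard error 0.21). The longer probe alone, taken after the data were seen, gave -4.20 ± 0.46 against -4.00 ± 0.72, a difference of -0.19.

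miR-3141 and miR-1343-5p differed little between the groups. miR-3141 was at -1.66 ± 0.44 (SD, n = 4) in pregnant animals, compared with -1.58 ± 0.71 (SD, n = 3) in the others, with its highest value, -0.81, in non-pregnant cow 1 and its lowest, -2.32, in pregnant cow 3. The difference was -0.077 (standard error 0.39), and 0.31 without non-pregnant cow 1. miR-1343-5p was at -3.51 ± 0.36 (SD, n = 4) next to -3.49 ± 0.20 (SD, n = 3), and the groups differed by -0.020 (standard error 0.22). Its pair of probes gave differences of opposite sign, -0.10 (10 bases) and 0.065 (11 bases).

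On the pregnant side, the difference of miR-1224 depended on a single cow. The scaled level was -1.29, -0.36, -1.05 and -0.84 in pregnant cows 1 to 4 and -2.40, -0.73 and -0.33 in non-pregnant cows 1, 3 and 4. The mean was -0.88 ± 0.39 (SD, n = 4) next to -1.15 ± 1.097 (SD, n = 3), and the groups differed by 0.27 (standard error 0.52). Without non-pregnant cow 1 it was -0.36. The longer probe of miR-1224 was itself the 75th percentile on 2 arrays, pregnant cow 2 and non-pregnant cow 4, which fixes its scaled value there at 0. miR-2348 was at -1.47 ± 0.28 (SD, n = 4) next to -1.63 ± 0.26 (SD, n = 3), and the groups differed by 0.16 (standard error 0.20), which kept its sign with each cow left out (0.033 to 0.29) and was -0.16 with the software's signal per miRNA.

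**Figure D4:**
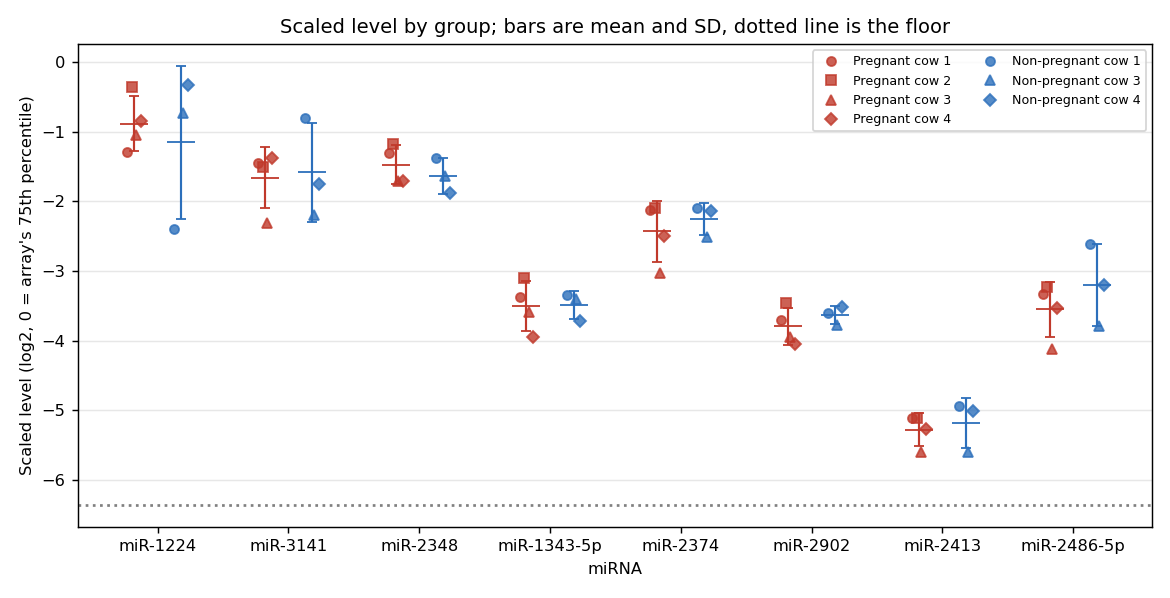
Scaled level (log2, 0 being the array's 75th percentile over the 57 probes detected on all arrays) of each miRNA in each cow, with group mean and SD; the dotted line is the floor. The groups overlap for all 8 miRNAs, and non-pregnant cow 1 is the lowest for miR-1224 (-2.40) and the highest for miR-3141 (-0.81) and miR-2486-5p (-2.61).

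The side on which most of the miRNAs fell differed between ways of processing. With scaling on detected probes of lower GC content 6 of 8 were negative, as with the main scaling (median -0.17, against 0.10 over all 88). Without scaling between arrays 7 of 8 had a positive difference and the median of the 8 was 0.18, next to 0.20 over all 88. With the software's signal per miRNA, scaled, all 8 were negative (median -0.43, against 0.24 over all 88), and with quantile normalization 6 of 8 (median -0.25, against -0.017). With normexp background correction 7 of 8 were negative (median -0.23, against -0.19). In these 5 ways of processing and with the main scaling, the median of the 8 lay below the median of all tested miRNAs, at a gap of -0.67 to -0.013. With scaling over all probes it lay above, at 0.53 against 0.18, and the standard errors were then 1.39 for miR-3141 and 1.33 for miR-2374. Of the 1617 probes, 1360 were of miRNAs detected on no array, so that scaling rests mostly on undetected probes. With the main scaling, the gap was -0.37 with the floor halved and -0.10 with it doubled. It was -0.084 where only miRNAs detected on all 7 arrays were tested.

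**Figure D5:**
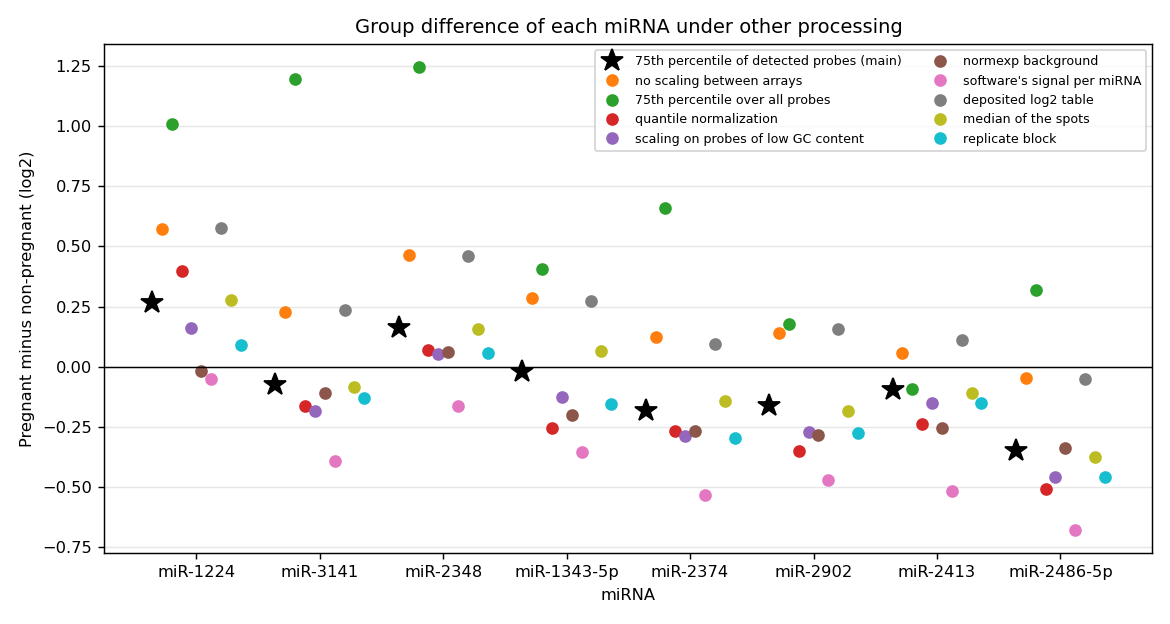
Difference between the groups (pregnant minus non-pregnant, log2) of each miRNA under the main scaling (star) and 9 other ways of processing. miR-3141, miR-1343-5p, miR-2374, miR-2902 and miR-2413 lie below 0 with the main scaling and above it without scaling, and scaling over all probes puts miR-3141 at 1.196.

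As a group, the 8 miRNAs held similar shares of the summed signal in both groups of cows. Their share was 3.73%, 3.82%, 3.00% and 4.03% in pregnant cows 1 to 4 and 3.54%, 3.24% and 3.71% in non-pregnant cows 1, 3 and 4. The mean was 3.64% ± 0.447 (SD, n = 4) against 3.50% ± 0.242 (SD, n = 3). The 8 brightest miRNAs took 87.3% to 92.6% of the sum. With those left out, the 8 members held 38.5%, 33.9%, 40.5% and 31.8% in pregnant and 40.9%, 43.3% and 45.3% in non-pregnant cows, and every pregnant cow lay below every non-pregnant cow, in miRNAs chosen partly for such a lean. Markers of blood cells, liver and muscle made up 5.01% to 16.4% of the same sum in pregnant and 3.68% to 9.77% in non-pregnant cows. miR-223, a myeloid miRNA, alone had a signal of 123 to 369 in pregnant and 55.9 to 152 in non-pregnant cows. With the marker lists also left out, a step chosen after the data were seen, the share of the 8 was 38.1% to 42.7% against 45.0% to 47.5%. Over miRNAs detected on all 7 arrays alone, also chosen later, it was 38.9% to 46.2% in pregnant and 43.2% to 50.9% in non-pregnant cows, and the groups overlapped. The part of the marker miRNAs and of dim miRNAs in this difference was not tested beyond these values.

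5 of the 8 (miR-2348, miR-2374, miR-2902, miR-2413 and miR-2486-5p) belong to a list of 309 array miRNAs with catalogue numbers near theirs. No array detected 269 of the 309, every array detected 17, and 40 were seen at least once. In the comparison of the groups, 32 of these were tested, 12 with a negative and 20 with a positive difference (median 0.070), and 0 were called. Over all 88 tested miRNAs, 25 were negative and 62 positive.

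The miRNAs with the most similar profile were chosen by Pearson's r, over the 7 arrays, with the mean scaled level of the 8. They were miR-2428 (r = 0.96), miR-2888 (r = 0.93), one of the 8 brightest, and miR-1260b (r = 0.89), out of 32 compared. The values describe these 7 arrays, which share the division by a common percentile. miR-2428, like the mean of the 8, was highest in pregnant cow 2 (-4.19) and lowest in pregnant cow 3 (-4.99).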

How the data were processed

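Plasma RNA (50 ng per cow, Cy3-labelled, per the labels' protocols) was measured on 7 arrays with 1617 probes and 14880 spots for 744 miRNAs, with 715 further spots as controls. The authors' scanner software was Agilent Feature Extraction 11.0.1.1, per the file headers. Deposited spot intensity has its background subtracted and no scaling across arrays. A miRNA's deposited intensity is the software's total for its detected probes and is set to 0.1 where the miRNA was not detected. A deposited table of log2 values per miRNA, whose scaling no label states, served as an alternative. For the members it was log2 of the unscaled signal per miRNA plus a constant of 3.32 in 56 of 56 values (within 0.001).

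Outlier spots (558 to 1149 per array, 2 to 12 among the members) were left out, and the spots of a probe were averaged and scaled as the report says. A probe counted as detected where over 50% of its spots were well above background. Values below a scaled 0.0122 (the median over arrays of the lowest detected value, which ran from 0.00518 to 0.0519) were set to it before taking log2. Signals of the negative controls had a median of 1.71 to 2.71 per array. limma 3.58.1 in R 4.3.3 was fitted, with no covariate, to the 88 miRNAs detected on at least 3 arrays, two-sided with a Benjamini-Hochberg threshold of 0.05. The limma fit was also run on simulated levels with known changes. Those levels were independent and normal, with the spread of the tested miRNAs but without the floor or the scaling step. The simulation therefore cannot show what these arrays could detect, and nothing is read from it. The number of arrays limits the precision, and intensities carry no counts.

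The members, lists and comparisons were chosen with earlier results of these data known. The text names all 8 members, the miRNAs next to them by rank, and the 3 most alike in profile. miRNAs with a shared seed were not looked up, since mature sequences were not used here. Alternatives changed the scaling, background, summaries, floor, filter, variance model and block, and left out each array.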

Additional observations from a re-analysis of the deposited data

Results flagged for a closer look

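Of 40 values checked among the 4 pregnant cows, 3 set a cow far apart from the other 3 by the gap to its neighbour over the whole range (Dixon's 95% criterion), and chance flags about 1 in 20. The scaled log2 level of miR-3141 was -2.32 in pregnant cow 3 and -1.50 to -1.38 in the others (gap over range 0.871). Pregnant cow 3 had the brightest array. The signal of the longer over the shorter probe of miR-2348 was 0.719 in pregnant cow 4, against 0.948 to 0.985 in the other pregnant cows (0.862). Non-pregnant cow 4 was lower still, at 0.684, and non-pregnant cows 1 and 3 were at 0.975 and 0.992. The same ratio for miR-2902 was 0.613 in pregnant cow 4, against 0.643 to 0.647 (0.880). Pregnant cow 4 was also among the 2 arrays with the widest spread between spots, a median of 17.0% for the probes of these miRNAs. Non-pregnant cow 4 was the other, at 24.5%. The part of brightness and of spot spread in these values was not tested.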

How the results depend on the processing

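limma called 0 miRNAs in the main run and in each of the 21 other runs, among them those without an array; the count at an unadjusted p under 0.05 was 1 in the main run and 0 to 11 in the others. Without scaling, the differences of miR-3141, miR-1343-5p, miR-2374, miR-2902 and miR-2413 turned positive, to 0.23, 0.29, 0.12, 0.14 and 0.055. In the deposited table, for the members also an unscaled signal and so no separate evidence, the same 5 were 0.23, 0.27, 0.093, 0.16 and 0.11. With the 75th percentile taken over all probes, miR-3141, miR-1343-5p, miR-2374, miR-2902 and miR-2486-5p were 1.196, 0.41, 0.66, 0.18 and 0.32. With normexp miR-1224 was -0.018. With the software's signal miR-1224 was -0.049 and miR-2348 -0.16, and with the median of spots miR-1343-5p was 0.066. The cause of these turns was not tested.

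With an array left out, miR-1224 ran from -0.36 to 0.68, miR-3141 from -0.38 to 0.31, miR-2348 from 0.033 to 0.29 and miR-1343-5p from -0.15 to 0.13. miR-2374 ran from -0.32 to 0.015, miR-2902 from -0.28 to -0.077, miR-2413 from -0.30 to 0.026 and miR-2486-5p from -0.64 to -0.058. Leaving out non-pregnant cow 1 or pregnant cow 3 turned the sign of 4 members each. The share of the 8 members differed by 0.15 percentage points between the groups, and by 0.020 to 0.36 with an array left out. It was -7.00 with the 8 brightest out of the sum, and, in steps added later, -5.68 with the marker lists also out and -4.98 over miRNAs detected on all arrays.

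Cow numbers are shared by the groups, and the titles do not say whether same-numbered cows belong together. The deviations of same-numbered cows correlated at 0.094, 0.65 and -0.20, and 3 of 6 arrays correlated best with their own number. So few correlations cannot tell whether the numbers pair the cows. With cow number as a block, limma called 0 miRNAs, all signs of the 8 members held, and their differences ran from -0.46 (miR-2486-5p) to 0.091 (miR-1224). The share then differed by 0.090. Pregnant cow 2 has no same-numbered partner, so these differences equal those with that cow left out and are no separate check.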
